A study of Mus musculus with 4 samples.

Results

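This account concerns 10 genes that encode subunits of the SWI/SNF (BAF) chromatin remodelling complexes, Smarca4, Smarcb1, Smarcc1, Smarcd1, Smarce1, Arid1a, Arid1b, Arid2, Pbrm1 and Actl6a, in a pooled knockout screen. The members were taken by name, and all 10 were found among the 20380 genes of the authors' deposited table. The screen was done in E14 mouse embryonic stem cells, an established line, whose genotype label names a MERVL-tdTomato reporter and whose treatment label is none. MERVL is an endogenous retrovirus transcribed in the 2-cell embryo and in the few cultured stem cells that enter a like state. Cells carrying the reporter were transduced with a lentiviral Cas9 library, selected with 2 ug/mL puromycin for 48 h, and reporter-bright cells were sorted at day 5. The libraries, made from genomic DNA, numbered 2 for MERVL-positive and 2 for total cells, and their titles call them sequencing repeats. All 4 share the line, the reporter and the guide library, so no group without guides enters the comparison.

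SWI/SNF complexes use the energy of ATP to slide or evict nucleosomes and so open enhancers and promoters. Around a shared core they form the canonical BAF complex, which carries ARID1A or ARID1B, the PBAF complex, which carries ARID2 and PBRM1, and a non-canonical complex, which carries BRD9 and lacks SMARCB1 and SMARCE1. Embryonic stem cells use a form built on the ATPase BRG1, the product of Smarca4, together with BAF155, the product of Smarcc1, and this form is known for its part in self-renewal and pluripotency.

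For each gene the table holds 1 comparison of the groups, and libraries have no values of their own. There is therefore no spread between libraries for any gene, and neighbours in the order of fold changes cannot be told apart by such a spread. The log2 fold change of a gene compares the abundance of its guides between MERVL-positive and total cells. Which group is the numerator is not stated in the table; positive values are taken as more guides in MERVL-positive cells. That reading is likely but not settled, since it rests on the series title and on Ints7, the gene the title names, which stands at rank 157 for enrichment and 18586 for depletion per the authors' deposited table. If the numerator is the other group, each direction given here turns. Depth per library is unknown, and per the labels about 500000 cells were sorted from a library of 130209 guides. That is 3.84 sorted cells per guide, or 23.0 for a gene with 6 guides, if guides were evenly spread.

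Guides against Smarcb1, Actl6a and Arid1a were placed toward the MERVL-positive side by the gene test, with unadjusted enrichment p-values of 0.0389, 0.0307 and 0.0134 per the authors' deposited table. Those 3 of 10 members stood beside 5.02% of all genes with an enrichment p under 0.05. No member had a depletion p under 0.05 by the authors' deposited table, where 5.07% of genes did, and Smarcd1 came closest at 0.0545. None passed a false discovery rate of 0.05 by the authors' deposited table, where the members' values ran from 0.974 to 0.999 for enrichment and from 0.975 to 0.999 for depletion. Over all genes the share that passed that rate was 0% for enrichment and 0.00491% for depletion. After correction for the number of entries, no single BAF subunit was thus called in either direction.

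The 10 log2 fold changes ranged from -0.54 to 0.70, with a median of 0.26. All genes had a median of -0.021, with their middle 50% between -0.33 and 0.26, and single non-targeting guides had a median of 0.019. Of the members, 6 lay above 0 against 48.0% of all genes. In order they were Smarcb1, Actl6a, Arid2, Arid1a, Arid1b and Smarcc1 above 0, then Pbrm1, Smarce1, Smarca4 and Smarcd1 below. The members therefore did not lie on one side, and core subunits of canonical BAF and PBAF stood at both ends of the order.

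**Figure D1:**
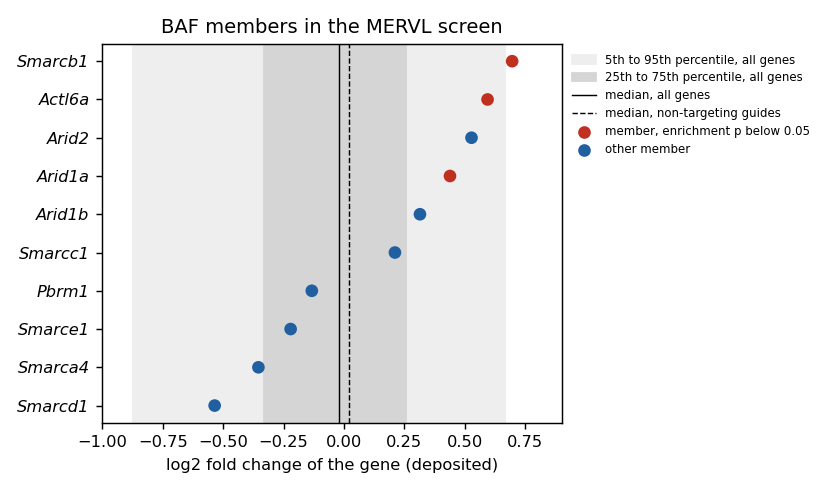
Deposited log2 fold change (horizontal axis) of each of the 10 BAF members, with bands for the central part of all genes and lines for the medians of all genes and of non-targeting guides; there is 1 value per gene and no error. Smarcb1 at 0.70 is the only member beyond the 95th percentile of all genes, 0.66, and Smarcd1 at -0.54 is the lowest.

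Every member had 6 guides. A guide is called up or down here when it passed the guide threshold of the gene test in that direction, a loose threshold that takes in about the first 37.4% of ranked guides for enrichment and 37.9% for depletion. Of the members' 60 guides, 29 were up (48.3%) and 19 down (31.7%) per the authors' deposited table. Over all genes 37.4% of guides were up and 38.0% down. At least 4 of 6 guides were up for Smarcb1, Actl6a, Arid1a, Arid1b and Arid2, which is 5 of 10 members beside 14.5% of the 16270 genes with 6 guides. At least 5 were up for Smarcb1 and Actl6a, beside 2.91%. At least 4 were down for Smarcd1 alone among the members, beside 15.5%. Guides against the same gene share their target and are not replicates, so these counts are descriptions.

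**Figure D2:**
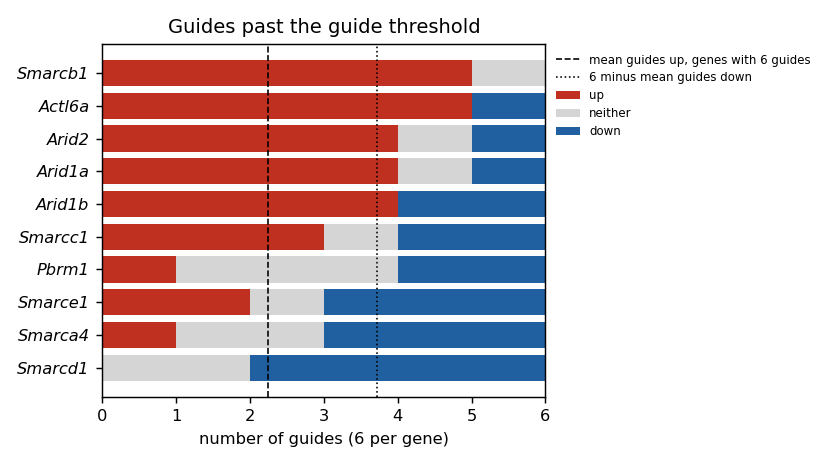
Number of guides (horizontal axis) up, past neither threshold, or down for each BAF member, ordered by log2 fold change; the dashed and dotted lines mark the mean over all genes with 6 guides. Smarcb1 and Actl6a have 5 guides up, and Smarcd1 has none up and 4 down.

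If the gene score is that of robust rank aggregation, which combines the ranks of a gene's guides, it also fixes where some guides stood. The headers do not state this, and each place given here rests on that reading. When at most 1 guide of a gene passed the threshold in a direction, the score gives the place of its foremost guide exactly. When more passed, it gives a limit, the place that the guide could not surpass. Places are given as a percentage of all ranked guides, counted from the most enriched at 0% to the most depleted at 100%. The ranking is taken to be that of the authors' guide test and not that of fold change, which the headers do not state.

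The ATPase and the actin-related subunit that sits beside it differed. Smarca4 encodes BRG1, the motor of the complex, and lies on chromosome 9 from 21616106 to 21704230 in mm10. Per the authors' deposited table its log2 fold change was -0.35 (ratio 0.782), and 1 of its 6 guides was up and 3 were down. Its fold change was above that of 23.4% of genes, yet its enrichment p of 0.198 per the authors' deposited table was lower than its depletion p of 0.437. The 1 guide up stood at 1.28% of all ranked guides, while its most depleted guide stood no further than 95.7%. Among 1232 genes with 6 guides of which 1 was up and 3 were down, Smarca4 included, 47 had a lower enrichment p. For Smarca4 the fold change and the lower p-value thus lay on different sides, but neither p-value was under 0.05, so no direction was called.

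Actl6a encodes BAF53a, an actin-related protein that binds the ATPase arm and is also a subunit of the INO80 and TIP60-EP400 complexes. The gene lies on chromosome 3 from 32708546 to 32726973. The authors' deposited table placed it at rank 651 of 22510 entries for enrichment and gave it a log2 fold change of 0.59 (ratio 1.51). Of its guides 5 were up and 1 was down. Its value was above that of 93.3% of genes. The 1 guide down stood at 85.4%, away from the most depleted end.

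The core subunits lay at both ends of the order. Smarcb1 encodes SNF5, also called BAF47, which holds the complex to the nucleosome's acidic patch, and lies on chromosome 10 from 75896769 to 75921614. It had the highest log2 fold change of the members, 0.70 (ratio 1.62), with 5 guides up and 0 down and rank 824 for enrichment per the authors' deposited table. Its most depleted guide stood at 42.9%, so that all 6 guides were in the first 42.9% of the ranking. At the enriched end its first guide could stand no nearer than 0.165% and the fifth no nearer than 29.3%. Its value exceeded that of 95.7% of all genes. Among genes with 6 guides, 185 had the same guide numbers, Smarcb1 included.

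Smarcd1 encodes BAF60a, a core subunit that contacts transcription factors, and lies on chromosome 15 from 99702287 to 99713995. It had no guide up and 4 down, and a log2 fold change of -0.54 (ratio 0.690) per the authors' deposited table. Its most enriched guide stood at 40.2%, so that all 6 guides lay in the last 59.8%. Ranked for depletion it was at 1171 of 22510 entries per the authors' deposited table. Smarcb1 and Smarcd1 thus had guide rankings that overlapped only between 40.2% and 42.9%. They are the members with the highest and lowest fold change, so a small overlap follows in part from picking them. Of genes with 6 guides, 1.14% had the guide numbers of Smarcb1 and 1.89% those of Smarcd1.

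Smarcc1 encodes BAF155, a scaffold on which the core is built, and lies on chromosome 9 from 110132024 to 110240178. With 3 guides up and 2 down, its log2 fold change was 0.21 per the authors' deposited table, and its p-values were 0.349 for enrichment and 0.743 for depletion. Smarce1 encodes BAF57, a DNA-binding HMG-box subunit, and lies on chromosome 11 from 99209047 to 99231017. Of its guides 2 were up and 3 down, and the authors' deposited table gave it a log2 fold change of -0.22 and a depletion p of 0.159. Smarcc1 and Smarce1 thus each had guides past both thresholds.

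Both alternative ARID subunits of canonical BAF lay above 0. Arid1a encodes BAF250a, the large DNA-binding subunit that joins the core to the ATPase module, and lies on chromosome 4 from 133679008 to 133756769. It had the lowest enrichment p of the members, 0.0134, and rank 282 per the authors' deposited table. Its log2 fold change there was 0.44 (ratio 1.35), and 4 guides were up and 1 down. Its first 4 guides could stand no nearer to the enriched end than 0.0451%, 1.37%, 5.34% and 12.2%, and at least 1 of them stood exactly at its limit. The 1 guide down stood at 92.7%. Among genes with 6 guides, 914 had 4 up and 1 down, Arid1a included. Of these, 29 had a lower enrichment p while 608 had a higher fold change. Arid1a thus ranked higher by p than by fold change.

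Arid1b, which encodes the alternative subunit BAF250b, lies on chromosome 17 from 4994297 to 5347656. The authors' deposited table gave it a log2 fold change of 0.31 (ratio 1.24) and an enrichment p of 0.321, and 4 guides were up and 2 down. The fourth guide could stand no nearer than 36.9%, close to the guide threshold. Arid1a and Arid1b had the same number of guides up, with enrichment ranks of 282 and 6793 per the authors' deposited table. That difference was not tested, since guide values were not used here.

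The PBAF subunits lay apart in fold change. Arid2 encodes BAF200, the ARID subunit of PBAF, and lies on chromosome 15 from 96287522 to 96405463. Its log2 fold change was 0.53 (ratio 1.44) and its enrichment p 0.183 per the authors' deposited table, and 4 guides were up and 1 down. Its fold change was above that of Arid1a, which had the same guide numbers, but its enrichment rank of 3860 was below. Its first guide could stand no nearer than 1.15%, against 0.0451% for Arid1a.

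Pbrm1 encodes BAF180, the PBAF subunit with a row of bromodomains that read acetylated histones, and lies on chromosome 14 from 31019138 to 31121592. It had 1 guide up and 2 down, and the authors' deposited table gave it a log2 fold change of -0.13, an enrichment p of 0.821 and a depletion p of 0.826. Its most enriched guide stood at 18.4%, and its most depleted guide no further than 81.3%. All 6 Pbrm1 guides therefore lay between 18.4% and 81.3% of the ranking.

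**Figure D3:**
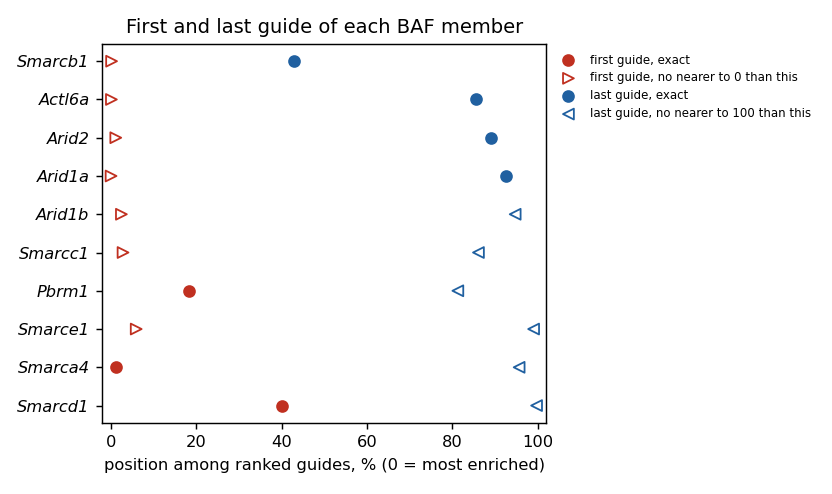
Place of the most enriched (red) and most depleted (blue) guide of each BAF member among all ranked guides, in percent from the enriched end. Filled points are exact and open triangles are limits, if the gene score is that of robust rank aggregation. All Smarcb1 guides lie at or before 42.9%, all Smarcd1 guides at or after 40.2%, and those of Pbrm1 between 18.4% and 81.3%.

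**Figure D4:**
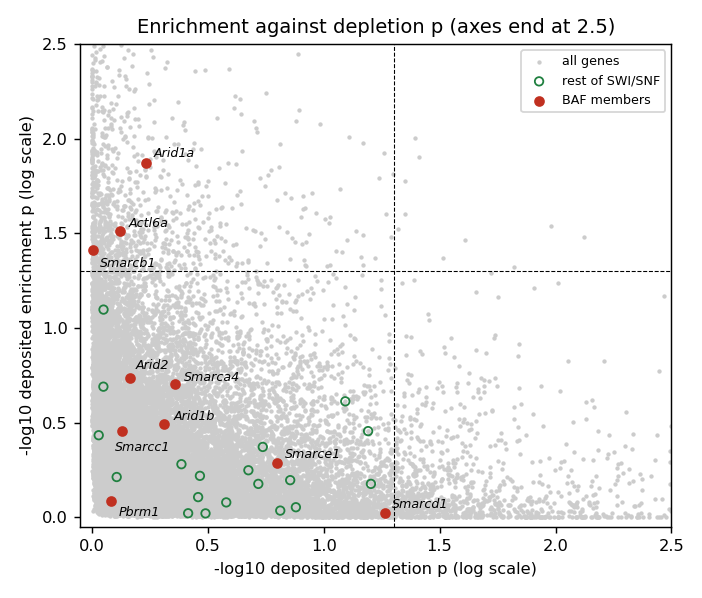
Deposited enrichment p (vertical axis) against depletion p (horizontal axis), both as -log10, for all genes (grey), the BAF members (red, named) and the other 19 SWI/SNF genes (green circles); dashed lines mark 0.05 and both axes end at 2.5. Arid1a, Actl6a and Smarcb1 lie above the horizontal line, and Smarcd1 lies just short of the vertical line.

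The rest of the SWI/SNF family had a lower median than the members. The list held 19 genes, paralogues and accessory subunits, and its median log2 fold change was -0.32 with 4 genes above 0, against 0.26 and 6 of 10 for the members and 48.0% of all genes above 0. None of the 19 had an enrichment or depletion p under 0.05 per the authors' deposited table, and at the shares over all genes, 5.02% and 5.07%, a list of this size would hold few such genes. Of their 109 guides, 30.3% were up and 47.7% down per the authors' deposited table, where 37.4% and 38.0% were over all genes. With both lists joined, the 29 genes had a median of -0.22 and 10 lay above 0. The members were chosen with results of these data known, so the gap between the lists was not tested.

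Paralogues of the members were mostly below 0. Smarca2, which encodes the alternative ATPase BRM, had a log2 fold change of -0.50 per the authors' deposited table, near that of Smarca4. Smarcc2, which encodes BAF170, had -0.73 with 0 of 5 guides up per the authors' deposited table, lower than Smarcc1 by 0.94. Smarcd2 and Smarcd3, the other BAF60 genes, had -0.82 and -0.38 per the authors' deposited table, so that all 3 BAF60 genes were below 0. Actl6b, which encodes the neuronal BAF53b, had 0.26 with 3 of 5 guides up per the authors' deposited table, above 0 as Actl6a was. Whether these paralogues were expressed in the cells was not measured.

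Subunits that define the separate assemblies also lay on both sides of 0. Brd9, the bromodomain subunit of the non-canonical complex, had 4 of 6 guides up, a log2 fold change of 0.57 and an enrichment p of 0.0800 per the authors' deposited table, the lowest of the 19. Its partners in that complex, Bicra and Bicral, listed as Gltscr1 and Gltscr1l, had -0.39 and -0.49 per the authors' deposited table. Of the PBAF subunits, Phf10 had the lowest value of the family, -1.21, with 2 guides up and 4 down and a depletion p of 0.0626 per the authors' deposited table. Brd7, the bromodomain subunit of PBAF, had -0.13 per the authors' deposited table, equal to Pbrm1 at this rounding. Dpf2, a histone-reading subunit of canonical BAF, had 0.21 and Ss18, a subunit of the ATPase arm, had -0.32 per the authors' deposited table. The other 7 genes ranged from -0.94 to 0.43, with 1 of them above 0. The subunits of PBAF, and those of the non-canonical complex, thus lay on both sides of 0.

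**Figure D5:**
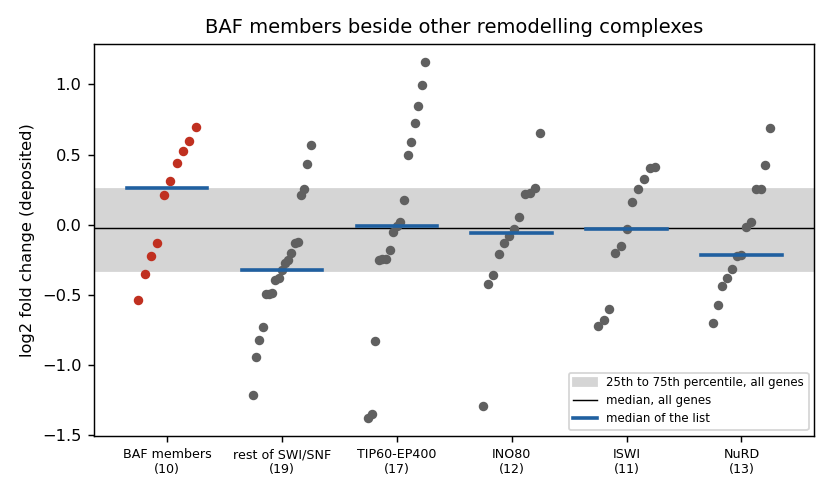
Deposited log2 fold change (vertical axis) of each gene in the BAF members and in 5 other lists of remodelling complexes, with the number of genes under each name; blue bars are list medians and the grey band holds the middle 50% of all genes. The BAF members have a median of 0.26 and the rest of SWI/SNF a median of -0.32.

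Actl6a is shared with TIP60-EP400, a complex that exchanges and acetylates histones. The 17 other genes listed for it had a median log2 fold change of -0.0086, with 8 above 0, beside 48.0% of all genes. Dmap1, Epc1 and Vps72 had unadjusted enrichment p-values of 0.000502, 0.00200 and 0.0256 per the authors' deposited table. Those 3 of 17 stood beside 5.02% of all genes with an enrichment p under 0.05. None of the 3 passed a false discovery rate of 0.05, with values there of 0.827, 0.867 and 0.985. The log2 fold changes of these 3 genes were 1.00, 1.16 and 0.59 per the authors' deposited table. Every guide against them was up. These 3 genes were named by their enrichment p, which rests on the same guides, so this adds no separate support. Ruvbl1, an ATPase that INO80 shares, had an unadjusted depletion p of 0.0405 and a log2 fold change of -1.35 per the authors' deposited table. It was the 1 gene of 17 with a depletion p under 0.05, beside 5.07% of all genes, and its false discovery rate was 0.975. Which of its complexes the value of Actl6a reflects was not tested.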

How the data were processed

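Guide DNA from 4 libraries, 2 of MERVL-positive and 2 of total cells, was compared by the authors, whose table has the headers of a MAGeCK gene summary. MAGeCK and mm10 are named in the submitters' processing notes. Its version, settings and normalization: not given in the sources used here. Per the file headers, the authors deposited for each of 22510 entries (20380 genes, 1132 microRNAs, 998 non-targeting guides) a score, a p-value and false discovery rate per direction, a log2 fold change, ranks and guide numbers. The titles call the libraries sequencing repeats, so the 2 of a group may differ by technical spread alone. If the gene test aggregates guide ranks, as taken below, its p-value reflects how a gene's guides rank among all guides. It would then not measure spread between biological replicates.

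No test was added. Members, lists and the rule for named genes (all members, paralogues, assembly-defining subunits, others with p under 0.05) were chosen with earlier results of these data known. Guide places were found by inverting the score as that of robust rank aggregation, a step chosen after the values were seen. It was checked on the table: over 20195 entries with a guide up, the limit never passed the threshold. In 1112 entries with 1 guide the 2 scores summed to 1 within 5e-06. That sum shows that the rankings of the 2 directions mirror each other. It cannot check the inversion for genes with more guides, since with 1 guide the score is itself the place. Positions came from RefSeq GRCm38.p6, in which all 10 members matched by symbol. Guide sequences were not used here. Python 3.11.15, pandas 2.3.3 and SciPy 1.17.1 were used.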

Additional observations from a re-analysis of the deposited data

How the results depend on the processing

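The median log2 fold change of the members, 0.26, was 0.15 as a mean, 0.24 after subtraction of the median of non-targeting guides and 0.28 after that of all genes. Leaving out each member in turn gave 0.21 to 0.31. Joined with the rest of SWI/SNF it reversed to -0.22, as 19 further genes entered. With ranks among genes in place of fold changes, the median member stood at 25.1% for enrichment and 62.0% for depletion. The sign of all 10 members' fold changes was kept under both centrings. The count of 3 members with an enrichment p under 0.05 was 3 at 0.10, and 0 at 0.01, by the deposited false discovery rate and by a Benjamini-Hochberg adjustment over genes only. The count of 0 for depletion became 1 at 0.10, Smarcd1, and was 0 at 0.01 and by both adjustments. Shares of all genes at 0.10, at 0.01 and by the adjustment over genes only were not computed. Whether the members' counts there differ from those shares is therefore not known. Over all genes the median p was 0.506 for enrichment and 0.501 for depletion. No paired analysis was possible because the table holds no value per library, and for the same reason no library could be left out. At 3.84 sorted cells per guide, a subunit that was not called may still have had an effect.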

Other observations

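Genes of the INO80, ISWI and NuRD complexes with an unadjusted p under 0.05 per the authors' deposited table numbered 0 of 12, 1 of 11 and 1 of 13, where 5.02% of all genes passed for enrichment and 5.07% for depletion, so these counts set no complex apart. The 12 INO80 genes, a list without Actl6a, Ruvbl1 and Ruvbl2, which that complex shares with TIP60-EP400, had a median log2 fold change of -0.058. Among 11 ISWI genes, with a median of -0.031, Baz2b had a log2 fold change of -0.68 and a depletion p of 0.0479 per the authors' deposited table. Among 13 NuRD genes, with a median of -0.22, Mbd3 had 0.69 and an enrichment p of 0.0234 per the authors' deposited table, a fold change close to that of Smarcb1.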
